A study of Mus musculus with 6 samples.

Results

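The genes described here are 10 mouse genes of the MHC class II presentation pathway, chosen by their names on the array: H2-Aa, H2-Ab1, H2-Eb1, H2-DMa, H2-DMb1, H2-Oa, H2-Ob, Cd74, Ciita and Ifi30. They were 10 of the 27597 genes on the array and had 15 of its 41174 probes, printed on 24 of its 43379 non-control spots. All 10 genes and all 15 probes passed the filter on dim probes, which kept 21395 genes that were well above background on the 3 arrays of at least 1 group.

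MHC class II molecules are pairs of an alpha and a beta chain that carry peptides from endosomes to the cell surface, where CD4 T cells read them. The chains assemble with the invariant chain Cd74, proteases cut that chain down to a small fragment, and the DM pair exchanges the fragment for peptide while the DO pair modulates DM. Ciita is recruited to a conserved promoter module of these genes and switches them on; B cells, dendritic cells and medullary thymic epithelial cells carry class II constitutively, and many other cells acquire it under interferon gamma.

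The study compared epithelial cells sorted from the thymus and the thyroid of C57BL/6 mice, with 3 one-colour Agilent arrays in each group. Thymic cells came from the thymic medulla and were Epcam+, bound the lectin UEA1, and lacked CD45 and the dead-cell dye Fluorogold; replicates 1 and 2 each pooled 6 thymi and replicate 3 pooled 2. Thyroid cells were Epcam+ and lacked CD45 and Fluorogold, and each replicate pooled 20 thyroids. No treatment or transgene was named for either group, so each group stands for pooled animals, and the p-values below measure the spread between these pools.

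Levels are given as log2 of the processed signal relative to the array's 75th percentile, called the relative log2 level, so that 0 is the level of that percentile. The percentile lay between 676 and 772 signal units on the thymic arrays and between 476 and 805 for thyroid arrays. None of the spots reached saturation. Between 78.4% and 81.0% of probes were well above background on the thymic arrays, against 65.3% to 72.7% in the thyroid group. Slide 1 held the 3 thymic arrays with thyroid replicate 1, and slide 2 held the remaining thyroid arrays. The difference of each member is therefore given with its value on slide 1, and that of other genes in part only. Of the marker genes, 8 of 8 medullary thymic epithelial genes were higher in thymic cells, and 7 of 8 thyroid follicular genes and 6 of 6 endothelial genes in thyroid cells. The summed linear level of the endothelial genes was 301 to 438 times the percentile in thyroid cells and 0.61 to 0.69 in thymic cells, so the thyroid libraries also held RNA of endothelial genes.

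The promoters of the class II genes are shown first because 5 of the 7 members with a promoter window held the same pair of short motifs at nearly the same spacing. The windows are RefSeq sequences of build GRCm38.p6, from 250 bases before to 50 bases after each gene's start, and no window was at hand for H2-Ab1, Cd74 or Ciita. Each line below gives a stretch of the promoter from 5′ to 3′ on the gene's strand. The first capitals mark GNAAC, taken here as the core of the X box, and the last capitals mark TGATTGG, the inverted CCAAT element known as the Y box.
H2-Aa, chr17:34287863-34287910, minus strand: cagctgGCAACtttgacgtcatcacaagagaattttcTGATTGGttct
H2-Eb1, chr17:34305770-34305816, plus strand: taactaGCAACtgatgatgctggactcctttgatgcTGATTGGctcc
H2-DMb1, chr17:34153091-34153138, plus strand: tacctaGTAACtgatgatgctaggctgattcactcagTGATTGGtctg
H2-Oa, chr17:34092297-34092344, plus strand: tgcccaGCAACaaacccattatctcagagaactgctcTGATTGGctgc
H2-Ob, chr17:34238812-34238856, plus strand: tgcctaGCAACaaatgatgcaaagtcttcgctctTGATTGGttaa

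In these 5 windows GNAAC began 28 to 31 bases before the Y box element. That element began at position -50 in H2-Aa, -61 in H2-Eb1, -63 in H2-DMb1, -45 in H2-Oa and -59 in H2-Ob, counted from the annotated start. Both motifs were searched on both strands, and the spacing was read from these windows. Where several GNAAC preceded the Y box, the one at the commonest spacing was taken, so the choice itself favours like spacings. TGATTGG alone lay in 2568 of 32851 windows (7.82%) and GNAAC alone in 27873 (84.8%). The pair at a spacing of 28 to 31 bases lay in 36 windows (0.11%), which include the 6 class II windows that hold it. The H2-DMa and Ifi30 windows did not hold TGATTGG, which says only that these letters are not there. H2-Eb2, a class II locus gene that is no member, held the pair, and H2-DMb2 held TGATTGG without GNAAC at that spacing.
H2-Eb2, chr17:34325537-34325583, plus strand: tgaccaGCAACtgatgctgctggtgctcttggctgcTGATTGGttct
H2-DMb2, chr17:34145151-34145167, plus strand: acttagTGATTGGactg

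**Figure D1:**
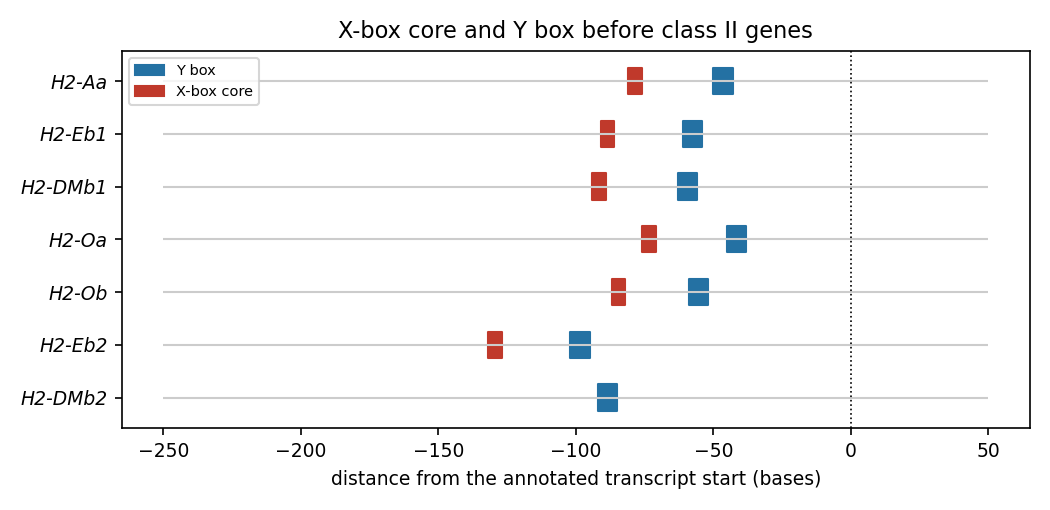
Position of the motif pair in the promoter windows of the class II genes, with distance from the annotated start in bases on the horizontal axis, 1 row for each gene whose window held TGATTGG, and boxes for GNAAC (X-box core) and TGATTGG (Y box). GNAAC lay 28 to 31 bases before TGATTGG in H2-Aa, H2-Eb1, H2-DMb1, H2-Oa, H2-Ob and H2-Eb2, and H2-DMb2 held the Y box alone.

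All 10 class II genes were higher in thymic than in thyroid cells, from 7.20-fold for Ifi30 to 317-fold for H2-Oa among the 9 with a measured level in both groups, and with a lower bound for H2-Ob (limma, adjusted p between 2.76e-07 and 4.58e-06 over all genes tested). Over all genes tested, 69.8% were called in either direction, 39.2% were called higher in thymic cells at an adjusted p under 0.05, and 28.4% were also at least 2-fold higher, which all 10 members were. At 8-fold or more stood 9 of the 10 members, against 13.7% of all genes. In each member the 3 thymic values lay above the 3 thyroid values, as they did in 42.0% of all genes. The median difference of the members was 6.24 on the log2 scale, or 5.92 with H2-Ob at its bound, and that of all genes tested was 0.10. On slide 1 the members' median was 6.20, with each array centred on its median it was 5.72, and with normexp background correction it was 5.18. The members were chosen by name with earlier results of these arrays known. In such bulk samples, fewer cells that carry class II and less class II RNA per cell cannot be told apart.

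**Figure D2:**
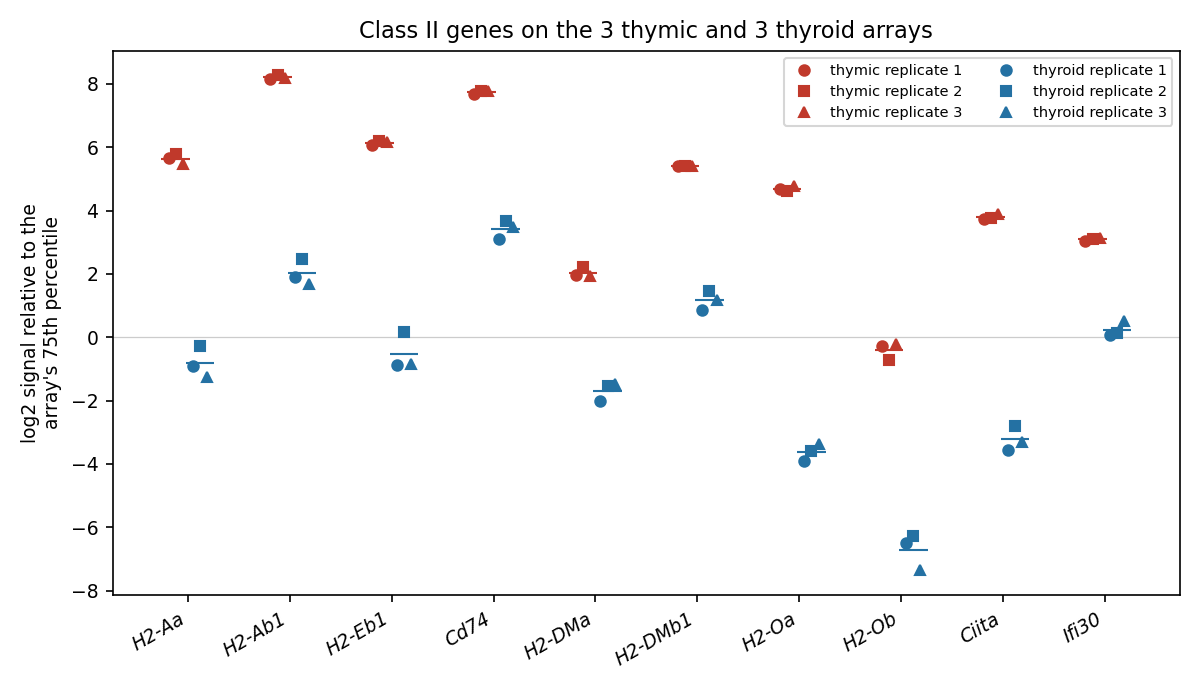
Relative log2 level of the 10 members on each array, with points for the 3 thymic and 3 thyroid replicates and lines for the group means. In every member the thymic points lie above the thyroid points, by 2.85 for Ifi30 to 8.31 for H2-Oa; levels of different genes come from different probes and are not to be compared.

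The classical surface molecules of these mice are built from H2-Aa and H2-Ab1, the alpha and beta chains of I-A, and H2-Eb1 encodes the beta chain of I-E. H2-Aa stood at relative log2 levels of 5.65, 5.79 and 5.47 in thymic replicates 1 to 3 and at -0.91, -0.29 and -1.25 in thyroid replicates 1 to 3. Thyroid replicate 2 was the highest of its group, and the groups were far apart. The mean was 5.64 ± 0.16 (SD, n = 3) in thymic and -0.82 ± 0.49 (SD, n = 3) in thyroid cells, an 87.8-fold difference (6.46 ± 0.25, SE, on the log2 scale, limma adjusted p = 1.84e-06; 6.55 on slide 1). The processed signal of this probe was 29937 to 38838 on the thymic arrays and 299 to 428 on the thyroid arrays, so the gene was well above background in all 3 thyroid replicates as well.

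H2-Ab1 stood at 8.16, 8.26 and 8.18 on the thymic arrays and at 1.90, 2.49 and 1.68 on the thyroid arrays. Again thyroid replicate 2 was highest in its group, and no thyroid value came near the thymic ones. The difference was 72.6-fold (6.18 ± 0.21, SE, adjusted p = 1.15e-06; 6.30 on slide 1). H2-Eb1 stood at 6.05, 6.19 and 6.18 on the thymic arrays and at -0.86, 0.15 and -0.83 on the thyroid arrays, a 101-fold difference (6.66 ± 0.28, SE, adjusted p = 2.48e-06; 7.01 on slide 1). Its probe, placed across 462 bases at chr17:33922800-33923261 in build mm8, is described in the files as an I-A beta mRNA of the NOD strain although it is named H2-Eb1, so a share of its signal from the I-A beta chain was not tested.

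The chain genes gave like differences on every probe that the array holds for them. In build mm8, to which the files place the probes, H2-Aa had probes at chr17:33892680-33892739 and chr17:33892022-33892081 on the minus strand, with differences of 6.46 and 6.65. H2-Ab1 had 4 probes with differences between 6.18 and 6.48; 3 of them lie at chr17:33877309-33877368, chr17:33875638-33875697 and chr17:33872973-33873032, and the files give no position for the fourth. Exons were not assigned to probes, since no annotation of mm8 was used here. The probe at 33875638 was spotted 10 times on each array. Its spots had an SD of 0.05 to 0.10 within an array (9 spots were usable on thyroid replicate 2), while its array means had an SD of 0.15 among the thymic and 0.47 among the thyroid replicates.

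The H2-Ab1 probe without a position and the probe at 33872973 are printed because they overlap by 31 bases and differ there at 2 bases, in capitals. Counted from 1 at the 5′ end of the first, the differences are A34T and A49T, with the base of the first probe written first.
H2-Ab1, probe without a position: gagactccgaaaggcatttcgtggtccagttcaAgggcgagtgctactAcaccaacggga
H2-Ab1, probe at chr17:33872973-33873032: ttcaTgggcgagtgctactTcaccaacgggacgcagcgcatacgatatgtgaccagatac
The first gave a difference of 6.44 (86.6-fold) and the second of 6.37 (82.6-fold), so the differing bases came with nearly the same difference between the groups.

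The I-E alpha chain gene H2-Ea, which pairs with H2-Eb1 and is known to be silent in C57BL/6 mice, was not well above background on any of the 6 arrays and was not tested. H2-Eb2, a further beta chain gene, was well above background on all 3 thymic arrays, at 0.84, 0.63 and 0.95, and on no thyroid array. Thymic cells exceeded thyroid cells at least 117-fold for this gene (limma adjusted p = 7.72e-07). With normexp correction its difference was 4.27 in place of 8.98, below the bound of 6.87 on the log2 scale. A probe described only as a class II antigen cDNA, singled out after its values were seen, gave 4.10 in thymic and -2.75 in thyroid cells (6.85 ± 0.22, SE, limma adjusted p = 8.42e-07 over all probes tested). The bound for H2-Eb2 sets the thymic mean against the higher of each thyroid array's lowest well-detected signal and the probe's own signal. The bounds below do the same, and all apply to the main processing only.

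Of the genes that load and edit the peptide, H2-DMa and H2-DMb1, the chains of the exchange factor DM, were higher in thymic cells by smaller factors. H2-DMa, whose probe of 60 bases is placed across 564 bases at chr17:33747809-33748372, stood at 1.97, 2.22 and 1.93 on the thymic arrays and at -2.02, -1.53 and -1.49 on the thyroid arrays. The groups did not overlap, and the difference was 13.2-fold (3.72 ± 0.18, SE, adjusted p = 4.06e-06; 4.06 on slide 1). H2-DMb1 (probe at chr17:33767055-33767114) stood at 5.40, 5.40 and 5.41 on the thymic arrays and at 0.87, 1.46 and 1.19 on the thyroid arrays, an 18.8-fold difference (4.23 ± 0.16, SE, adjusted p = 1.74e-06; 4.53 on slide 1). The thymic replicates of H2-DMb1 had an SD of 0.0021, the smallest among the members. H2-DMb2, the neighbouring DM beta chain gene, was 21.4-fold higher (4.42 ± 0.19, SE, adjusted p = 2.89e-06), and the median over its probes gave a difference of 6.21.

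H2-Oa and H2-Ob encode the chains of DO, which binds DM and is best known from B cells and the thymic medulla. H2-Oa stood at 4.67, 4.63 and 4.77 on the thymic arrays and at -3.91, -3.58 and -3.36 on the thyroid arrays. Its difference of 317-fold was the largest among the 9 members with a measured thyroid level (8.31 ± 0.16, SE, adjusted p = 2.76e-07; 8.60 on slide 1), and its other probe gave 8.21. With normexp background correction the H2-Oa difference was 7.25. The probes lie at chr17:33705542-33705601 and chr17:33705473-33705533.

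H2-Ob (probe placed across 232 bases at chr17:33852080-33852311) was the only member that was not well above background in thyroid cells; the other 9 were so on all 6 arrays. Its signal was 634, 428 and 582 units in thymic replicates 1 to 3. In thyroid replicates 1 to 3 it was 8.85, 6.16 and 4.37, none of them well above background, although the scanner software marked each as positive and significant. The thymic level was therefore higher at least 50.8-fold (adjusted p = 3.95e-06; measured relative log2 means -0.40 ± 0.27 and -6.71 ± 0.57, SD, n = 3 each). With normexp correction the difference was 2.75 in place of 6.31, and on slide 1 it was 6.10. A further probe that the files describe as the H2-O beta locus, but do not name H2-Ob, was well above background on no array of either group, at a mean of -8.32 in thymic and -8.08 in thyroid cells.

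Cd74, the invariant chain that fills the groove of new class II molecules and guides them to endosomes, stood at 7.69, 7.79 and 7.76 on the thymic arrays and at 3.10, 3.68 and 3.48 on the thyroid arrays. No thyroid value reached a thymic one, and the difference was 20.1-fold (4.33 ± 0.16, SE, adjusted p = 1.70e-06; 4.65 on slide 1). Ifi30, a thiol reductase of endosomes that unfolds antigens before they are cut, had the smallest difference among the members. It stood at 3.05, 3.09 and 3.13 on the thymic arrays and at 0.08, 0.15 and 0.50 on the thyroid arrays, a 7.20-fold difference (2.85 ± 0.14, SE, adjusted p = 4.58e-06; 3.01 on slide 1). Ifi30 was highest in thyroid replicate 3, as were H2-DMa and H2-Oa. Its probe is placed across 727 bases at chr8:73692837-73693563 on the minus strand.

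The class II transactivator gene Ciita has its probe at chr16:10439788-10439847. Ciita stood at 3.73, 3.77 and 3.90 on the thymic arrays and at -3.56, -2.81 and -3.30 on the thyroid arrays. Its signal was 9527 to 10258 units on the thymic arrays and 68.0 to 72.3 units on the thyroid arrays, where it was still well above background. The difference was 129.9-fold (7.02 ± 0.20, SE, adjusted p = 6.86e-07; 7.36 on slide 1), and with normexp correction it was 6.08.

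Across the members the thyroid replicates were the more scattered group. In 10 of 10 members the SD was larger among thyroid replicates, between 0.23 and 0.58, than among thymic replicates, between 0.0021 and 0.27. The thyroid SD of H2-Ob rests on signals not well above background. Over 41134 probes the thyroid arrays were also less alike, with correlations of 0.985 to 0.989, against 0.992 to 0.993 among thymic arrays. A larger thyroid scatter was thus not particular to the members, and its share among all genes was not computed. By relative level, thyroid replicate 2 was the highest of its group in 7 members and replicate 3 in the other 3. Replicate 1, the only thyroid array on slide 1, was highest in none and lowest in 7. This order depends on the scaling, since the percentile was 805, 476 and 712 units on thyroid replicates 1 to 3. In processed signal, replicate 1 lay above replicate 2 in every member but H2-Eb1. Among the thymic replicates, replicate 2 was highest in 5 members and replicate 3 in 5.

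The members differed in how far apart the groups lay, which was measured within each array as the log2 ratio of a member to the mean of H2-Aa, H2-Ab1 and H2-Eb1, a quantity that does not depend on how arrays are scaled to each other. A negative difference of this ratio means that the groups lay closer together for the member than for the classical chains. With 3 arrays against 3 the exact two-sided permutation test cannot go below p = 0.1, which is 0.117 after adjustment over the 7 ratios, so no ratio could pass 0.05. The ratio of Ifi30 differed by -3.58 ± 0.37 (SE), that of H2-DMa by -2.71 ± 0.29, that of H2-DMb1 by -2.20 ± 0.20 and that of Cd74 by -2.11 ± 0.22, each with the smallest p the test allows. For Cd74 the ratio was 1.07, 1.04 and 1.15 in thymic replicates 1 to 3, against 3.06, 2.90 and 3.61 in the thyroid replicates. On that measure the invariant chain gene stood 4.30-fold higher relative to the chains in thyroid than in thymic cells.

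The H2-Oa ratio lay on the other side, higher by 1.87 ± 0.34 (SE) in thymic cells, again at the smallest exact permutation p of 0.1, and by 0.95 with normexp correction. The Ciita ratio was higher by 0.59 ± 0.16 (SE) in thymic cells at an exact permutation p of 0.1, but with normexp correction it was -0.22. The H2-Ob ratio rests on thyroid signals that were not well above background, so its values in thyroid cells are not measured levels. As computed, it differed by -0.13 ± 0.28 (SE; exact permutation p = 0.7) with overlapping groups, by 0.071 without thymic replicate 2, by 0.067 without thyroid replicate 1, and by -3.55 with normexp correction. Between the chains of one molecule, the difference of H2-Ab1 minus that of H2-Aa was -0.27 ± 0.09 (SE), and that of H2-DMb1 minus that of H2-DMa was 0.51 ± 0.13. These values take 1 probe per gene, and the SE does not cover the choice of probe. The 4 H2-Ab1 probes gave 6.18 to 6.48 and the 2 H2-Aa probes 6.46 to 6.65, so their ranges overlap. For the DO pair, H2-Ob minus H2-Oa gave -2.001 ± 0.47, with the same limit on the H2-Ob signal in thyroid cells.

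**Figure D3:**
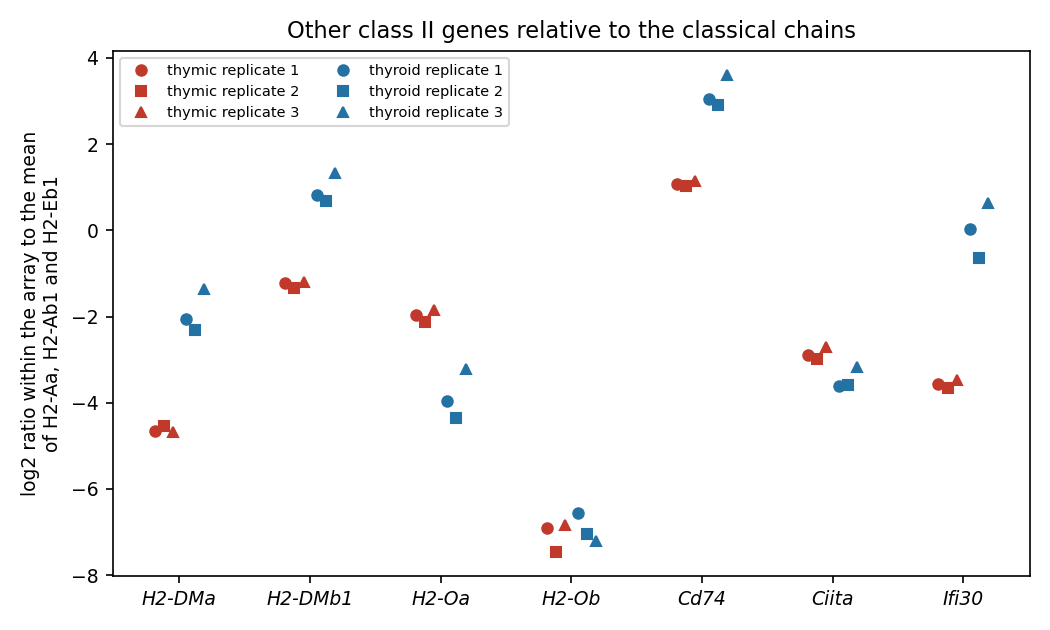
Log2 ratio of each of 7 members to the mean of H2-Aa, H2-Ab1 and H2-Eb1 on each array, with points for the 3 thymic and 3 thyroid replicates. The thymic points lie below the thyroid points for Ifi30, H2-DMa, H2-DMb1 and Cd74, above them for H2-Oa and Ciita, and among them for H2-Ob.

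The genes of the proteins that sit with Ciita on the X and Y boxes had small differences in both directions. Of the 7 genes of the promoter complex, 1 was higher in thymic cells, 3 were higher in thyroid cells and 3 did not pass, with a median of -0.30 against 0.10 for all genes tested. At the same threshold 30.6% of all genes were higher in thyroid cells; that share and the 39.2% depend on the scaling, since median centring called 6130 genes higher in thymic and 10968 in thyroid cells in place of 8392 and 6550. Rfx5, a subunit of the X box binding factor RFX, was 2.24-fold higher in thymic cells (1.16 ± 0.19, SE, adjusted p = 0.00159; 1.42 on slide 1; 0.64 with normexp correction or with median centring). Its partner Rfxank had a difference of -0.45 (adjusted p = 0.0429), a call lost with normexp correction (adjusted p = 0.0531), without a filter on dim probes (adjusted p = 0.0684), with the replicate block (adjusted p = 0.0771) and without any 1 of the replicates other than thyroid replicate 3 (adjusted p from 0.0660 to 0.128). Rfxap, the other RFX subunit, had -0.23 (adjusted p = 0.143), and passed with median centring (-0.75) and when its probes were replaced by their median (-0.48, adjusted p = 0.00670).

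Of the subunits of NF-Y, which binds the Y box, Nfyc was 2.17-fold higher in thyroid cells (-1.12 ± 0.18, SE, adjusted p = 0.00135). Nfyb had a difference of -0.56 (adjusted p = 0.0127), which did not pass under quantile normalization (adjusted p = 0.0921) or with the slide as a block (adjusted p = 0.122). Nfya had 0.22 (adjusted p = 0.190), and -0.30 with median centring. Creb1, which binds the X2 element beside the X box, had -0.30 (adjusted p = 0.0576) and passed with median centring (-0.82).

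The interferon gamma route, which can switch Ciita on outside the constitutive cell types, was split as well: of 6 genes, 1 was higher in thymic cells, 3 were higher in thyroid cells and 2 did not pass (median -0.29). The receptor chain gene Ifngr2 was 2.31-fold higher in thymic cells (1.21 ± 0.10, SE, adjusted p = 5.04e-05; 0.69 with median centring), and its partner Ifngr1 1.82-fold higher in thyroid cells (-0.87 ± 0.11, SE, adjusted p = 0.000321). Irf1, an interferon-induced factor that acts on the Ciita promoter, was 2.36-fold higher in thyroid cells (-1.24 ± 0.23, SE, adjusted p = 0.00252). The kinase gene Jak1 was 1.49-fold higher in thyroid cells (-0.57, adjusted p = 0.00585) but did not pass under quantile normalization (adjusted p = 0.133) or when the probes of the gene were replaced by their median (adjusted p = 0.284). Jak2 and the feedback inhibitor Socs1 had differences of -0.01 and 0.17 that did not pass and changed sign with the scaling or the slide; Jak2 passed with median centring (-0.53, adjusted p = 0.0164).

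Of the 4 proteases that cut the invariant chain, 1 passed. Ctss, the cathepsin that makes the last cut in B cells and dendritic cells, was 21.0-fold higher in thymic cells, at 4.75, 4.57 and 4.79 against 0.65, 0.43 and -0.14 in thyroid cells (4.39 ± 0.21, SE, adjusted p = 4.56e-06; 4.05 on slide 1). Ctsl, which does this in cortical thymic epithelium, had -0.22, and Lgmn, an endopeptidase of early steps, had -0.28; neither passed, and both passed with median centring, at -0.74 and -0.81. Sppl2a, which clears the remaining membrane stub of Cd74, had 0.26 and did not pass, with 0.49 under quantile normalization (adjusted p = 0.00815), 0.35 without thyroid replicate 2 (adjusted p = 0.0472) and -0.26 with median centring.

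The genes of class II turnover at the cell surface went different ways. Marchf1, the ubiquitin ligase that removes class II from the surface of B cells and dendritic cells, reached the detection level on no thyroid array, and its thymic level was at least 12.2 times as high (adjusted p = 2.54e-06; 1.50 on the log2 scale with normexp correction in place of 4.77). Cd83, which opposes it, was 5.38-fold higher in thymic cells (2.43 ± 0.33, SE, adjusted p = 0.000560; 2.21 on slide 1). Marchf8, a related ligase known from thymic epithelium, was 1.83-fold higher in thyroid cells (-0.87 ± 0.13, SE, adjusted p = 0.000778).

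**Figure D4:**
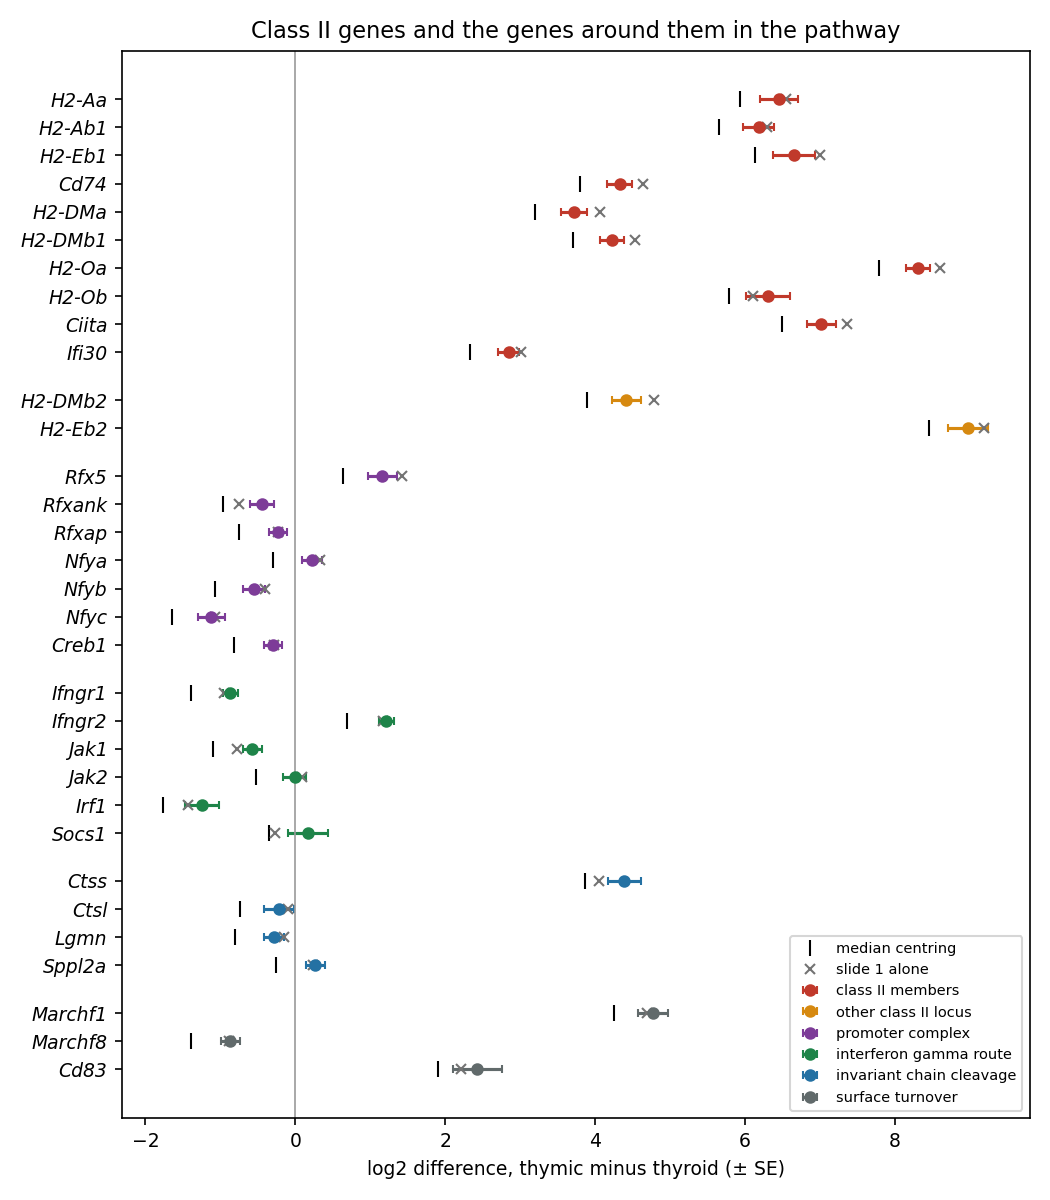
Thymic minus thyroid difference in log2 signal for the members and for the other genes of the pathway, grouped by role, with bars for the standard error, crosses for slide 1 alone and vertical ticks for median centring; H2-Ob, H2-Eb2 and Marchf1 are drawn at their measured values. The 10 members lie between 2.85 and 8.31, whereas the 7 genes of the promoter complex lie between -1.12 and 1.16 and the 6 of the interferon gamma route between -1.24 and 1.21.

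Along chromosome 17, 7 of the 10 members have probes within 218 kb (mm8 chr17:33705473-33923261), and the genes between them had differences in both directions. Of the 6 other tested genes in that interval, 2 were higher in thymic cells (H2-DMb2, above, and the immunoproteasome gene Psmb9 at 1.02), 1 was higher in thyroid cells (Brd2 at -0.72), and 3 did not pass. Those 3 were the class I peptide transporter genes Tap1 (0.48) and Tap2 (0.04) and the immunoproteasome gene Psmb8 (0.24). Their signs were negative with median centring (-0.04, -0.49 and -0.28) and on slide 1 alone (-0.05, -0.54 and -0.23). Among all genes tested, 39.2% were called higher in thymic and 30.6% higher in thyroid cells. Within 200 kb on either side of the interval lay 23 tested genes with a median of -0.11. Of those, 8 were higher in thymic cells and 6 were lower there. The 5 of them on the H2-Eb1 side were all called higher in thymic cells, whereas 3 of the 18 on the H2-Oa side were. Of those 5, 4 were well above background on no thyroid array, with bounds from at least 5.05-fold to at least 117-fold. These 4 passed the filter through the thymic arrays alone, which favours a call in that direction. The counts on either side are therefore not to be compared. H2-Eb2 lies on the H2-Eb1 side, as does the butyrophilin-like gene Btnl1, at least 93.1-fold higher; the non-member genes of the interval and its flanks named here were chosen by position or after their values were seen.

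**Figure D5:**
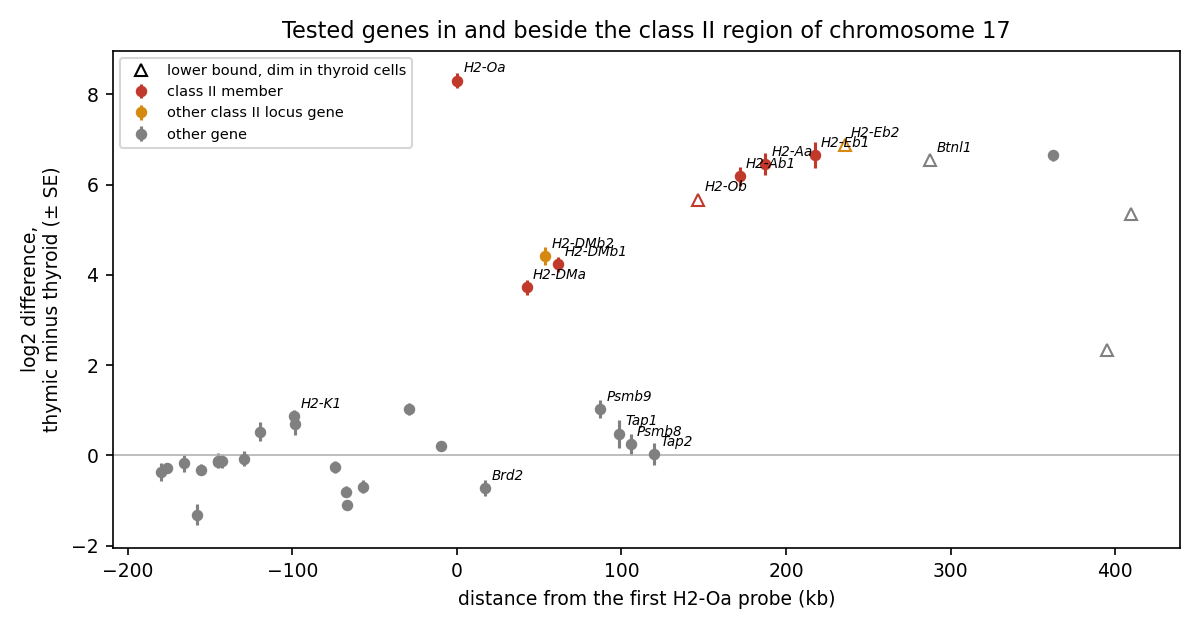
Thymic minus thyroid difference in log2 signal along the class II region of chromosome 17, with distance from the first H2-Oa probe in kb on the horizontal axis and 1 point per tested gene with its standard error, members in red; triangles are lower bounds for genes dim on all thyroid arrays. The 7 members lie between 3.72 and 8.31, and the genes Brd2, Psmb9, Tap1, Psmb8 and Tap2 between them lie from -0.72 to 1.02.

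Class II genes are also carried by blood cells, so the values of their markers are given beside the members. Ptprc, which encodes CD45, the protein used to leave blood cells out of both sorts, stood at -1.12, -1.31 and -0.43 on the thymic arrays and at -5.02, -4.82 and -5.16 on the thyroid arrays, a 16.5-fold difference (4.05 ± 0.24, SE, adjusted p = 1.05e-05). Ptprc was highest in thymic replicate 3, as were 5 of the 10 members (H2-DMb1, H2-Oa, H2-Ob, Ciita and Ifi30), whereas 2 members (H2-Aa and H2-DMa) were lowest there and 3 lay between the other replicates. These ranks rest on small steps, since the SD among thymic replicates was 0.46 for Ptprc and at most 0.27 for a member. The summed linear level of the thymocyte markers was 2.67, 2.95 and 4.99 times the percentile in thymic replicates 1 to 3. Of the 8 B-cell markers, 8 were higher in thymic cells, as were 39.2% of all genes tested. The smallest differences were those of Cr2 (0.51, and -0.02 with median centring) and Cd79a (0.76, and -0.39 under quantile normalization). By values as measured, the largest were those of Ms4a1 (at least 13.6-fold) and Pax5 (at least 6.88-fold), whose thyroid signals were not well above background. Fcer2a, named after its values were seen, was well above background in both groups and 10.7-fold higher in thymic cells. With normexp correction Ms4a1 had 1.69, Pax5 had 1.06 and Fcer2a had 2.98 on the log2 scale. The summed linear level of the 8 B-cell markers was 6.42 to 7.15 times the percentile in thymic and 1.58 to 2.78 times in thyroid cells. Ms4a1, Pax5 and Blk were well above background on no thyroid array.

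Of 16 dendritic and myeloid markers 12 were tested. Of these, 9 were higher in thymic cells and 1 was higher in thyroid cells, beside 39.2% and 30.6% of all genes tested. Clec9a, Cd209a, Siglech and Spi1 were well above background on no array of either group. The summed level of the tested markers was 97.3 to 106 in thymic and 3.12 to 4.53 in thyroid cells. Lyz2 made up 91.5 to 99.8 of the thymic sum, and the other 11 markers summed to 5.77 to 6.81 in thymic and 2.56 to 3.30 in thyroid cells. The difference was 6.74 for Lyz2 and at least 11.3-fold for Itgam, which was well above background on no thyroid array. With normexp correction Itgam had 1.42 on the log2 scale. The lowest differences were those of Xcr1 (-0.17, not passed) and Zbtb46 (-2.48). Of 12 thymocyte markers 11 were tested, with 10 higher in thymic cells, 1 higher in thyroid cells, and sums of 2.67 to 4.99 and 1.80 to 1.94, and Rag2 was well above background on no array. By values as measured, the largest thymocyte differences were those of Cd8a (at least 31.6-fold) and Rag1 (at least 20.2-fold), both well above background on no thyroid array. With normexp correction Cd8a had 2.44 and Rag1 had 2.02 on the log2 scale. Cd3d, named after its values were seen, had 6.26, and 2.92 with normexp correction. Cd8b1 had the lowest, at -1.99. Cd3e (0.46) had -0.06 with median centring, and Cd4 (0.74), named after its values were seen, had -0.28 under quantile normalization. The summed level of the 10 class II members was 705 to 752 in thymic and 16.7 to 24.8 in thyroid cells. Such sums rest on different probes, so they are not to be compared between lists. The part of blood cells in the class II signal of either group was not tested.

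The genes whose pattern was most like the class II genes were found by the Pearson correlation over the 6 arrays with the mean of H2-Aa, H2-Ab1, H2-Eb1 and Cd74, among 13412 genes well above background on all 6 arrays. The closest 5, with predicted and Riken names left out, were the gastric proton pump gene Atp4a (r = 0.99997), the trefoil peptide gene Tff1 (0.99978), Cenpp (0.99975), the homeobox gene Irx4 (0.99973) and Plek (0.99970). The 6 arrays form 2 separate groups, and 902 of these genes (6.73%) had an r over 0.99, so the order among them rests on small differences within groups.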

How the data were processed

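RNA of 6 sorted cell pools was hybridised in 1 colour (Cy3) to Agilent arrays. The scanner files the authors deposited hold intensities from Feature Extraction 10.5.1.1, whose processed signal is background-corrected, per the file headers. The deposited value table holds a ratio that matched each processed signal divided by its array's median (largest log2 deviation 5.7e-05). Any step before scanning beyond the labels' protocols is not given in the sources used here.

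Non-control spots were kept, outlier spots left out (40 probe values, none of a member) and spots of a probe averaged. Values were log2 processed signal less the 75th percentile of the array. Probes entered the tests where each array of 1 or both groups had them well above background, and the tested probe with the highest mean level stood for its gene. Differences were tested in R 4.3.3 with limma 3.58.1 (lmFit and eBayes, 2 groups, no covariate) and Benjamini-Hochberg adjustment over 21395 genes; ± SE is that of the fit. The fit was also tested on simulated data. Names were updated through RefSeq accessions for 24375 probes, by symbol for 6301 and by older symbol for 2426; 8072 kept the files' names. Figures used Python 3.11.15 and matplotlib 3.10.9.

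The members, gene lists and motifs were chosen with earlier results of these data known. All members and pathway genes could be named, with Ptprc and the 2 largest and 2 smallest differences of a marker list, and the 5 most alike genes. Alternatives were normexp (offset 50), quantile normalization, median centring, the value table, other filters on dim probes, the median over probes, a fit on all probes, the slide as a block or slide 1 alone, a replicate block, and leaving out each replicate. 1 pathway gene is not reported here, and it was left out of its list's counts.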

Additional observations from a re-analysis of the deposited data

How the results depend on the processing

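All 10 members stayed higher in thymic cells with adjusted p under 0.05 in the 174 alternatives run for single members; the filter for probes well above background on all 6 arrays left H2-Ob untested. Counts over all genes moved by over 1.5 times in 3 cases. With only probes well above background on all arrays, 5014 of 17071 genes tested were higher in thymic cells, in place of 8392 of 21395. That count therefore also fell because fewer genes were tested. With median centring and with the deposited value table, 10968 were higher in thyroid cells, in place of 6550. Without each replicate in turn, 7638 to 8392 were higher in thymic and 5647 to 6410 in thyroid cells. The median of all genes was 0.10, and -0.42 with median centring, -0.05 with quantile normalization and 0.01 with normexp.

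Same-numbered samples did not pair (correlations of their deviations 0.0066, -0.07 and -0.05); with the replicate block, 10 members, 8049 genes higher in thymic and 6017 higher in thyroid cells were called.

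The Ciita ratio turned to -0.22 with normexp, and the H2-Ob ratio to 0.071 without thymic replicate 2 and 0.067 without thyroid replicate 1 (-0.26 to 0.071 without 1 replicate). Among other pathway genes, signs turned for Nfya (-0.30), Socs1 (-0.36) and Sppl2a (-0.26) with median centring and the value table. With the slide as a block or slide 1 alone, Jak2 was 0.089 and Socs1 -0.27. Jak2 was 0.018 with normexp, 0.14 and Ctsl 0.030 with quantile normalization, and Jak2 0.27 and Sppl2a -0.21 with the median over probes. Jak2 was 0.13 without thymic replicate 3 and 0.056 without thyroid replicate 3, where Socs1 was -0.092; without 1 replicate their ranges were -0.077 to 0.13 and -0.092 to 0.38. The cause was not tested. Signal near background limits the values of H2-Ob, H2-Eb2, Marchf1, Btnl1 and several marker genes in thyroid cells, and 3 arrays a group limit the precision.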
